A study of Homo sapiens with 8 samples.

Results

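Junction reads of 36 genes of mitosis were followed in RNA of the human erythroleukaemia line K562, out of 20720 genes with at least 1 such read and 14902 that passed the expression filter of edgeR. The 36 members are a named list: CCNA2, CCNB1, CCNB2, CDK1, CDC25C, PLK1, AURKA and NEK2; BUB1, BUB1B, TTK, MAD2L1, CDC20, PTTG1, ESPL1 and SGO1; AURKB, BIRC5, INCENP, CENPE and CENPF; KIF20A, KIF11, KIF2C, KIF4A, KIF14 and KIF18A; TPX2, NUSAP1, DLGAP5, HMMR, ASPM and PRR11; TOP2A, NCAPG and NCAPH. All 36 passed the filter. The members were chosen by their gene sums in these libraries, at day 8 against day 4 and by genotype, and by their junctions, so the levels below describe the members and test nothing about them. The cells carried SF3B1, a subunit of the U2 snRNP, in its wild-type form or as the mutant K700E, and were sampled at day 4 and day 8. There were 4 groups of 2 libraries: wild type at day 4, K700E at day 4, wild type at day 8 and K700E at day 8. The treatment text, the same for all 8 libraries, gives 1 ug/ml doxycycline to induce the modified allele. The labels name no clone and do not say that replicates were separate cultures, so p-values measure only the spread between these libraries, which may be technical.

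Mitosis is driven by cyclin-dependent kinase 1 with cyclins A and B, is held at metaphase by the spindle assembly checkpoint until every kinetochore is attached, and ends when the anaphase-promoting complex destroys cyclin B and securin. Most genes of this programme are transcribed in G2 and M phase, and their promoters often carry a cell cycle homology region (CHR), bound by the MuvB complex, and CCAAT boxes, bound by NF-Y. In bulk RNA, fewer cells in G2 or mitosis and less of these RNAs in each cell cannot be told apart.

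The labels were checked before the levels were read. Libraries held 49338071 to 77750812 unique junction reads. The upstream acceptor of MAP3K7, a known target of SF3B1 hotspot mutants, took 12.3% and 9.49% of reads in wild type and 63.3% and 57.5% in K700E at day 4. At day 8 it took 10.3% and 77.2% under the wild-type label and 14.7% and 62.4% under the K700E label, so wild type day 8 replicate 2 and K700E day 8 replicate 1 went against their labels. All day 4 libraries were aligned in May 2021, both labelled wild type at day 8 in Feb 2021 and both labelled K700E at day 8 in Mar 2021, per the file headers. Day and alignment run therefore cannot be told apart. Unannotated junctions with a single read made up 3.84% and 5.49% of unannotated junctions in the wild-type pair of day 8 and 25.9% to 37.9% in the others. A label calls the cells epithelial. Of 7 epithelial genes, CDH1 and KRT5 stood at 0 to 0.0414 CPM, while 5 passed the expression filter: KRT8, KRT18, EPCAM, KRT19 and ELF3. KRT8 and KRT18 were present in every library, and so were the erythroid genes GATA1 and TFRC. All 12 erythroid genes listed passed the filter.

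Of the 36 members, 32 had a promoter of 300 bases in the RefSeq table (GRCh38.p14); AURKA, BIRC5, TPX2 and TTK had none. A CHR, searched on both strands as TTTGAA or TTCGAA, lay in 22 of the 32 (68.8%), against 16.6% of 27305 promoters. CCAAT, also searched on both strands, lay in 27 of 32 (84.4%) against 35.7%, and both motifs in 20 (62.5%) against 6.58%. Neither motif contains the other. The windows below, 30 bases on the gene's strand with 1 CHR match in capitals, are from 6 members whose level was lower at day 8 in every library and from ESPL1 and INCENP, whose days overlapped.
DLGAP5 (chr14:55191706-55191735, minus strand): tctcacccatctTTTGAActggcccttcac
HMMR (chr5:163460592-163460621, plus strand): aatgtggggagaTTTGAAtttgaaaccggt
CCNB2 (chr15:59105105-59105134, plus strand): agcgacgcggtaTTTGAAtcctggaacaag
BUB1B (chr15:40161034-40161063, plus strand): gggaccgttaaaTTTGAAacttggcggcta
PLK1 (chr16:23678848-23678877, plus strand): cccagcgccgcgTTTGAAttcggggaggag
KIF4A (chrX:70290058-70290087, plus strand): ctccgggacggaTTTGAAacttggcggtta
ESPL1 (chr12:53268256-53268285, plus strand): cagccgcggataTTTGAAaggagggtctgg
INCENP (chr11:62123989-62124018, plus strand): tgagccttcagtTTTGAAaatcatagtttt
The HMMR window holds a second match, directly after the first and left in lower case. In 7 of these 8 windows the match began 10 to 34 bases before the annotated start, and in DLGAP5, which held 3 matches, the one shown began 138 bases before it. CDC25C, CENPE, KIF20A, CCNA2 and CCNB1 were among the 10 members with a promoter but no match to these letters in the window. A match is a description of the sequence and not a site shown to be bound.

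Between day 4 and day 8, 34 of the 36 members were called lower and 0 higher by edgeR at an adjusted p under 0.05, where 18.0% of all 14902 genes were called lower and 18.1% higher. Because the day contrast chose the members, nothing is read from that count. The median member changed by -1.59 on the log2 scale, against 0.00 over all genes, with a range from -2.52 in DLGAP5 to 0.02 in INCENP. The same 34 had all 4 day 8 libraries below all 4 day 4 libraries, a pattern seen in 17.7% of all genes. Relative to a gene's day 4 mean, the median member stood at 25.3% and 30.3% in the wild-type pair of day 8 and at 38.3% and 35.3% in the K700E pair, by label. Normalised values (CPM) are counts scaled to library size with TMM factors; in the sentences below they are given in the order wild type replicates 1 and 2, then K700E replicates 1 and 2, first for day 4 and then for day 8 as labelled. They compare a gene between libraries and not genes with each other, since they are not divided by length.

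**Figure D1:**
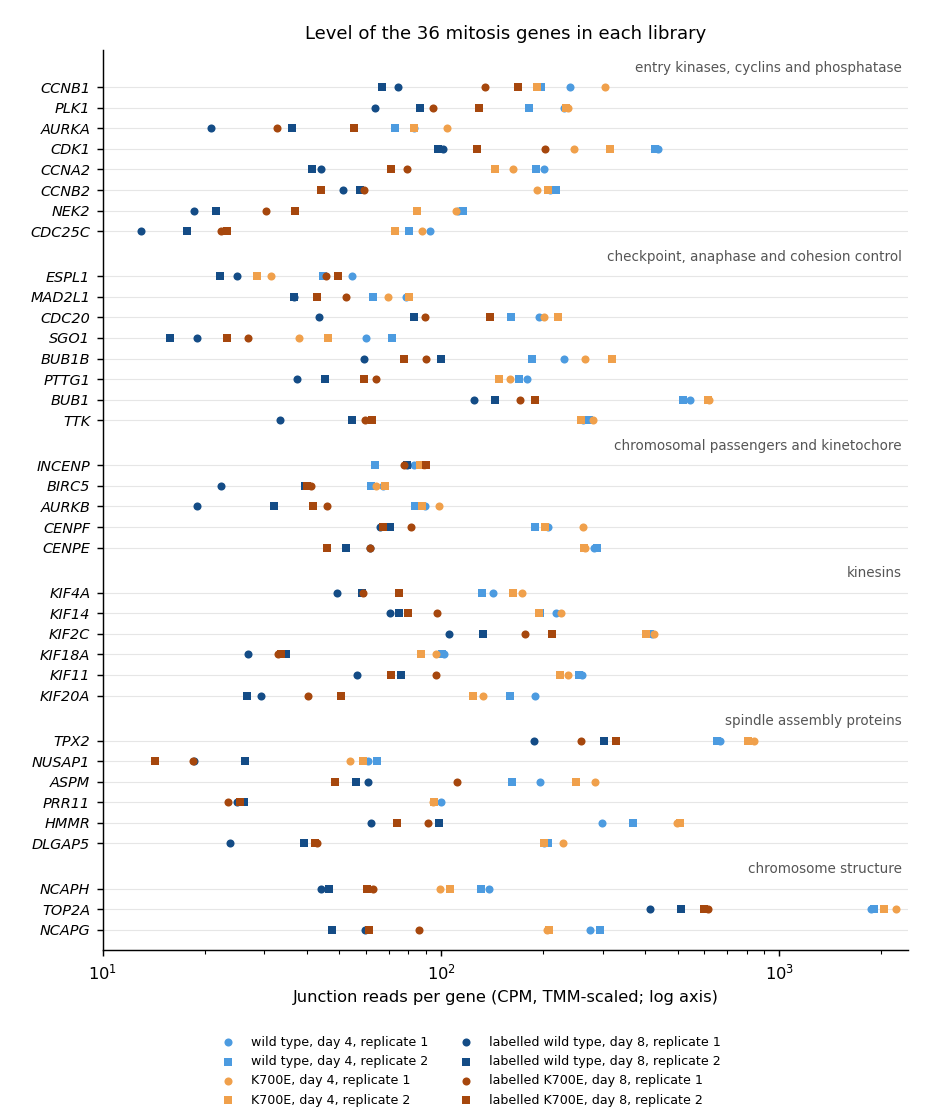
Normalised junction reads (CPM, log axis) of each of the 36 genes, 1 point per library, coloured by group as labelled, with circles for replicate 1 and squares for replicate 2. For 34 genes the 4 day 8 points lie left of the 4 day 4 points; ESPL1 and INCENP overlap.

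Entry into mitosis was represented by 8 members, all called lower, with a median log2 change of -1.53. CDC25C, the phosphatase that activates CDK1, stood at 92.7, 80.2, 87.9 and 72.9 CPM at day 4 and 12.9, 17.7, 22.3 and 23.2 CPM at day 8, the lowest ratio of this group (log2 change -2.16, SE 0.15). NEK2, a centrosome kinase, stood at 112, 116, 110.3 and 85.1 CPM and then 18.6, 21.6, 30.3 and 37.0 CPM (log2 change -2.02, SE 0.14). CCNB2, cyclin B2, stood at 209.8, 219, 193 and 207 CPM and then 51.1, 57.6, 59.0 and 44.1 CPM (log2 change -1.97, SE 0.13). In these 3 every day 8 library lay below every day 4 library. CDK1, the kinase itself, stood at 439, 429, 247 and 316 CPM and then 101, 98.1, 203 and 128 CPM (log2 change -1.45, SE 0.17). CCNA2, cyclin A2, stood at 202, 191, 163 and 144.4 CPM and then 44.0, 41.4, 79.3 and 71.2 CPM (log2 change -1.61, SE 0.11). CCNB1, cyclin B1, stood at 240.3, 197, 305 and 192 CPM and then 74.3, 67.0, 135 and 169 CPM (log2 change -1.17, SE 0.18), the smallest change of the group. In all 3 both libraries labelled K700E at day 8 were above both labelled wild type, so the gap between days was narrower under the K700E label. PLK1, polo-like kinase 1, stood at 231, 181, 238 and 235 CPM and then 63.6, 86.8, 94.9 and 129 CPM (log2 change -1.27, SE 0.17). AURKA, the kinase of centrosome maturation, stood at 82.9, 73.2, 104 and 83.0 CPM and then 20.8, 36.2, 32.8 and 55.1 CPM (log2 change -1.27, SE 0.24), with wild type day 8 replicate 1 lowest in both genes.

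Checkpoint, anaphase and cohesion control held 8 members, of which 7 were called lower (median log2 change -1.47). TTK, the checkpoint kinase MPS1, stood at 262, 274, 282 and 259.6 CPM at day 4 and 33.5, 54.4, 59.7 and 62.6 CPM at day 8 (log2 change -2.38, SE 0.17). BUB1, a checkpoint kinase at the kinetochore, stood at 544, 519, 619 and 613 CPM and then 125, 143.9, 171 and 189 CPM (log2 change -1.88, SE 0.11). BUB1B, the checkpoint protein BUBR1, stood at 231, 185, 266 and 321 CPM and then 59.1, 99.96, 90.3 and 77.7 CPM (log2 change -1.60, SE 0.19). The day 4 values of TTK lay within a narrow band, while those of BUB1B spread more and were highest in K700E. PTTG1, the separase inhibitor securin, stood at 179, 170.3, 159 and 148 CPM and then 37.4, 45.2, 64.3 and 59.0 CPM (log2 change -1.70, SE 0.12). CDC20, the activator of the anaphase-promoting complex, stood at 194, 161, 201 and 222 CPM and then 43.6, 83.3, 89.3 and 139 CPM (log2 change -1.19, SE 0.24), with the widest spread at day 8 of this group. SGO1, the protector of centromeric cohesion, stood at 60.01, 71.3, 38.1 and 46.4 CPM and then 18.9, 15.8, 26.8 and 23.2 CPM (log2 change -1.34, SE 0.15). MAD2L1, the checkpoint protein MAD2, changed least among those called: it stood at 78.6, 62.9, 69.6 and 80.1 CPM and then 36.8, 36.6, 52.4 and 43.0 CPM (log2 change -0.80, SE 0.14). ESPL1, separase, which cleaves cohesin, was not called: it stood at 54.6, 44.7, 31.4 and 28.5 CPM and then 24.9, 22.1, 45.6 and 49.6 CPM (log2 change -0.21, SE 0.13). Its order at day 8 was the reverse of that at day 4: wild type was higher at day 4, and the libraries labelled K700E were higher at day 8.

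Among the 5 chromosomal passenger and kinetochore members, 4 were called lower (median -1.43). CENPE, a kinetochore motor that brings chromosomes to the metaphase plate, stood at 282, 289, 267 and 264 CPM at day 4 and 61.7, 52.1, 61.5 and 46.1 CPM at day 8 (log2 change -2.32, SE 0.14). CENPF, a large outer kinetochore protein, stood at 207, 189, 262 and 203 CPM and then 66.0, 70.6, 81.3 and 67.5 CPM (log2 change -1.59, SE 0.13). The 4 libraries of a day lay close together in CENPE, with no order by genotype label at day 8. The chromosomal passenger complex joins AURKB, BIRC5 and INCENP in 1 particle, and its members differed. AURKB, the Aurora B kinase, stood at 89.8, 83.9, 98.6 and 87.7 CPM and then 18.9, 31.9, 46.1 and 41.7 CPM (log2 change -1.43, SE 0.18). BIRC5, survivin, stood at 67.2, 62.1, 64.1 and 68.1 CPM and then 22.3, 39.4, 41.2 and 40.02 CPM (log2 change -0.88, SE 0.19). INCENP, the scaffold, stood at 83.0, 63.9, 89.0 and 86.7 CPM and then 79.1, 79.0, 77.6 and 90.2 CPM (log2 change 0.02, SE 0.13), so its days overlapped throughout.

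All 6 kinesins, motor proteins of the spindle and chromosomes, were called lower (median -1.52). KIF20A, the cytokinesis motor MKLP2, stood at 189.6, 159, 133 and 124 CPM at day 4 and 29.3, 26.7, 40.5 and 50.5 CPM at day 8 (log2 change -2.07, SE 0.13). KIF11, the motor Eg5 that separates spindle poles, stood at 260.2, 256, 237 and 225 CPM and then 56.2, 76.2, 96.5 and 71.0 CPM (log2 change -1.71, SE 0.15). KIF18A, which dampens chromosome oscillation, stood at 102, 100.4, 96.3 and 87.1 CPM and then 26.8, 34.7, 32.8 and 33.7 CPM (log2 change -1.59, SE 0.13). KIF20A was the lowest of the 6 relative to day 4 and showed the K700E label on top at day 8, which KIF18A did not. KIF2C, the microtubule depolymerase MCAK, stood at 421, 414, 426 and 404 CPM and then 105, 133, 177 and 212 CPM (log2 change -1.45, SE 0.13). KIF14, a citron kinase partner in cytokinesis, stood at 219, 196, 226 and 195 CPM and then 70.5, 74.8, 97.5 and 80.1 CPM (log2 change -1.38, SE 0.12). KIF4A, a chromokinesin, stood at 143, 132, 174 and 163 CPM and then 49.2, 58.4, 58.7 and 75.1 CPM (log2 change -1.34, SE 0.13), the smallest change of the group, with no overlap between days.

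Spindle assembly proteins held the member with the largest change, DLGAP5, and all 6 were called lower (median -1.81). DLGAP5 (ENSG00000126787.12, chr14:55148112-55191678, minus strand, hg38), the microtubule stabiliser HURP, stood at 202, 206, 229 and 202 CPM at day 4 and 23.8, 39.3, 42.9 and 42.3 CPM at day 8 (log2 change -2.52, SE 0.18). HMMR, a spindle pole adaptor, stood at 299, 370.3, 497 and 507 CPM and then 62.2, 98.7, 91.5 and 74.0 CPM (log2 change -2.33, SE 0.18). TPX2, the activator of AURKA on the spindle, stood at 669.8, 652, 839 and 807 CPM and then 188, 304, 259 and 329.5 CPM (log2 change -1.46, SE 0.18). HMMR and TPX2 were higher in both K700E than in both wild-type libraries at day 4, an order that was not seen at day 8. ASPM, a spindle pole protein, stood at 196, 162, 284 and 250.4 CPM and then 60.7, 55.9, 111 and 48.7 CPM (log2 change -1.68, SE 0.25). NUSAP1, a microtubule bundler, stood at 60.7, 64.4, 53.7 and 58.6 CPM and then 18.6, 26.3, 18.4 and 14.2 CPM (log2 change -1.63, SE 0.16). PRR11, a proline-rich protein with cell cycle dependent expression, stood at 99.8, 95.2, 94.3 and 95.4 CPM and then 24.9, 26.2, 23.4 and 25.4 CPM (log2 change -1.95, SE 0.11). PRR11 varied least between libraries of a day, and NUSAP1 was the only member with both libraries labelled K700E below both labelled wild type at day 8.

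Chromosome structure was represented by 3 members, all called lower (median -1.92). TOP2A, topoisomerase II alpha, which untangles sister chromatids, had the most junction reads of the list and stood at 1860.5, 1904, 2219.9 and 2043 CPM at day 4 and 414, 513, 615 and 597 CPM at day 8 (log2 change -1.92, SE 0.12). NCAPG, a condensin I subunit, stood at 275, 295, 205 and 208 CPM and then 59.5, 47.6, 86.1 and 61.2 CPM (log2 change -1.95, SE 0.15). NCAPH, its kleisin partner, stood at 138, 131, 99.2 and 106 CPM and then 44.1, 46.5, 62.9 and 60.3 CPM (log2 change -1.16, SE 0.10), a smaller change than that of NCAPG although both belong to 1 complex.

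The change between days moved with the base composition of genes. Across the 14902 genes, Spearman's rho between GC content and the log2 change was 0.55, a description over genes of the same 8 libraries. The members' median GC content was 44.1%, against 49.6% over all genes. Among genes of at most 40% GC the 12 members had a median of -1.82 and the 1406 other genes -0.68; between 55% and 60% the 5 members had a median of -1.19 and the 2483 others 0.55. With a per-library trend on GC content taken out, an alternative added after seeing the data, 34 members were again called lower and the median was -1.16, while 6.41% of all genes were called lower and 8.5% higher. Those 34 included INCENP, at -0.59 (SE 0.16), and left out MAD2L1, at -0.10, and ESPL1, at -0.59. The part of GC content in the members' change was not tested beyond this adjustment.

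**Figure D2:**
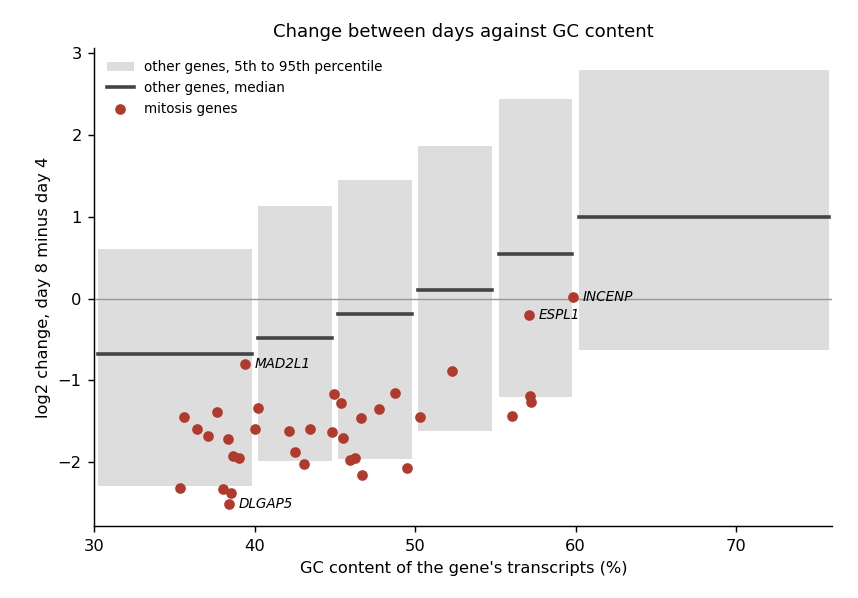
log2 change from day 4 to day 8 (y axis) against the median GC content of a gene's transcripts in percent (x axis). Grey boxes span the 5th to 95th percentile and bars the median of other genes in each GC bin; the 36 red points are the mitosis genes, of which all but INCENP lie below 0 and all lie below the median of their bin.

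Single introns were compared too. Of 625 annotated member introns with a mean of at least 20 reads per library, 539 had all 4 day 8 libraries below all 4 day 4 libraries when scaled to depth, against 20.7% of 121071 introns of all genes. The members were chosen on this contrast, so nothing is read from that count. This held for 50 of 50 introns of CENPE, 34 of 34 of TOP2A and 30 of 30 of KIF4A, and for 0 of 19 of INCENP and 0 of 30 of ESPL1. In other members it held for only some introns, as in BIRC5 (4 of 8), CDK1 (5 of 9), AURKA (9 of 15), MAD2L1 (3 of 5) and CCNB1 (6 of 9). The share of a gene's reads in the 5' part of its introns, split at the middle intron, had a median over members of 47.8% to 49.01% in the day 4 libraries and 48.3% to 50.1% in the day 8 libraries. Over 7404 genes with at least 6 introns the median was 44.2% to 44.6% and then 45.6% to 45.9%. The days thus overlapped in the median over members but not in the median over all these genes. Single genes moved more: in HMMR the share was 33.5% to 34.8% at day 4 and 40.9% to 47.0% at day 8, and in BIRC5 46.2% to 49.9% and then 61.2% to 65.3%.

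Other genes of cell division, in lists chosen with earlier results known, are given by their counts beside the 18.0% of all genes called lower and 18.1% called higher. Of 28 other kinetochore genes, 23 were called lower and 1 higher, with a median of -0.93. The lowest were CENPH (-2.40), NUF2 (-2.28), SKA1 (-2.17) and NDC80 (-1.97), all parts of or partners to the inner or outer kinetochore, and CENPM was the 1 higher, at 0.74. Of 25 other spindle and cytokinesis genes, 22 were called lower and 0 higher (median -1.19), led by KIF23 (-1.83), CKAP2L (-1.73), ECT2 (-1.65) and KIF20B (-1.62). After the GC adjustment these counts were 10 and 18 lower, and 0 higher in both, with CENPM at 0.06 and no longer called. With that adjustment 6.41% of all genes were called lower and 8.5% higher, and these shares also stand beside the adjusted counts of the lists below.

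Regulators of the programme divided. Of 27 entry and transcription regulators, 13 were called lower and 4 higher (median -0.43). The mitotic kinase PBK, at -1.66, and the phosphatase CDKN3, at -1.51, had the largest changes, both lower, followed by E2F1 (1.42) and by BORA (-1.42), an activator of PLK1. FOXM1 and MYBL2, transcription factors of the G2/M genes, were not called, at -0.26 each; after the GC adjustment MYBL2 was called lower by edgeR, at -0.92 (adjusted p 0.00940), and FOXM1 was not, at -0.45. Of 18 genes of the anaphase-promoting complex and its partners, 7 were called lower and 3 higher (median -0.32), led by ANAPC2 (1.65), CDC27 (-0.87), FBXO5 (-0.86) and ANAPC10 (-0.78). Of 16 cohesin and condensin genes, 10 were lower and 1 higher (median -0.84), led by SMC4 (-1.85), NCAPD2 (-1.41), STAG2 (-1.37) and RAD21 (-1.31). After the GC adjustment the counts lower and higher were 7 and 2 for the regulators, 1 and 1 for the anaphase-promoting complex and 6 and 1 for cohesin and condensin. E2F1 (0.61), ANAPC2 (0.74), CDC27 (-0.25), FBXO5 (-0.07) and ANAPC10 were then no longer called.

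Genes of G1/S and DNA replication did not share the fall: 4 of 27 were called lower and 6 higher, with a median of 0.07. CCND3, cyclin D3, was higher by 2.12 and RRM1, a ribonucleotide reductase subunit, lower, at -1.08, followed by MCM5 (0.68) and GINS2 (0.56). Of 15 cell cycle inhibitors and quiescence genes, 4 were lower and 4 higher (median -0.49). CDKN2D (2.43), CDKN1A (2.07) and TOB1 (1.38), which restrain cyclin-dependent kinases or proliferation, were higher, and CCNG1 was lower, at -1.52. After the GC adjustment 3 of the G1/S genes were lower and 3 higher, and 2 of the inhibitors lower and 2 higher, with MCM5, GINS2, CDKN2D and CCNG1 no longer called. CDKN2D rested on few reads, at 0.162 to 0.623 CPM at day 4 and 1.30 to 2.61 CPM at day 8. Erythroid markers moved with the day too: 6 of 12 were called lower and 0 higher, and their summed level was 1039 to 2445 CPM over the day 4 libraries and 1122 to 1819 CPM over the day 8 libraries. Of 7 epithelial genes, 5 passed the filter. KRT8 (1.07) and KRT18 (1.15) were called higher and EPCAM lower, at -2.11. The sum over the 7 was 487 to 986 CPM at day 4 and 1019 to 2608 CPM at day 8. Of 6 myeloid genes, 3 passed the filter, and SPI1 (1.43) and CD33 (0.61) were called higher. The myeloid sum was 58.1 to 88.0 CPM and then 113 to 150.1 CPM. ELANE stood at 0 in all 8 libraries, and MPO and CD14 at most at 0.149 CPM. Of 7 megakaryocyte and 6 lymphoid genes, 4 in each list passed the filter, and none of these was called between days. The megakaryocyte sum was 12.6 and 24.2 CPM in wild type and 126 and 125 CPM in K700E at day 4. At day 8 it was 96.1 and 74.2 CPM under the wild-type label and 39.4 and 516 CPM under the K700E label. The lymphoid sum was 7.62 to 12.04 CPM and then 10.1 to 46.7 CPM. After the GC adjustment 6 erythroid genes were lower, KRT18 stayed higher and EPCAM lower, and KRT8 (0.58), SPI1 (0.31) and CD33 (0.53) were no longer called. The part of these cell-type markers in the members' change was not tested.

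**Figure D3:**
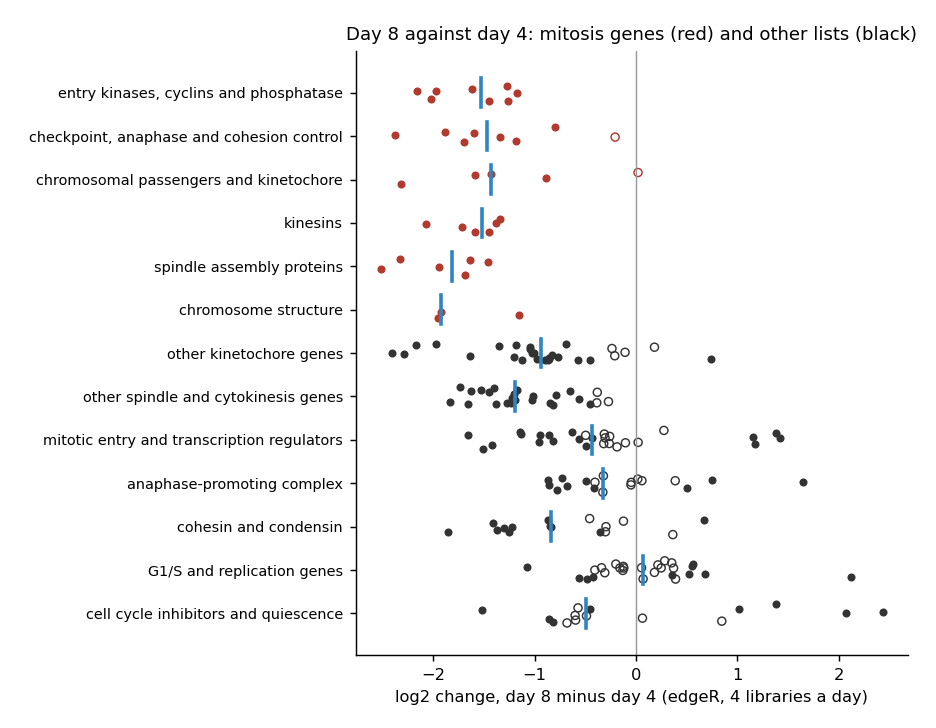
log2 change from day 4 to day 8 (x axis) of each gene, by list (y axis), with the 6 role groups of mitosis genes in red and other lists in black; filled points were called by edgeR, open ones were not, and blue bars are list medians. Medians run from -1.92 in the chromosome structure members to 0.07 in the G1/S and replication genes.

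Genotype was compared within each day. At day 4, edgeR called 0 of 14902 genes (0.0% in either direction), 0 of them members. An unadjusted p under 0.05 was found for 1449 genes, and DESeq2 called 270 (1.81%). The edgeR fit takes its spread from all 8 libraries. Its common coefficient of variation was 0.43, against 0.28 in the day 4 libraries alone and 0.52 in the day 8 libraries alone. With the day 4 libraries alone, edgeR called 74 of 13991 genes and 0 members. The members' median log2 difference, K700E minus wild type, was 0.02, with a range from -0.73 in ESPL1 to 0.59 in HMMR. Both K700E libraries were above both wild-type libraries in 11 members and below in 14, where 26.4% and 27.1% of all genes had these patterns. Genotype was part of the choice of members, so nothing is read from these counts. DESeq2 called ESPL1 alone among members, lower in K700E, at -0.70.

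At day 8 edgeR again called 0 genes (0.0%), though 1132 had an unadjusted p under 0.05 and DESeq2 called 65 (0.436%). Under the labels, 32 of the 36 members lay above 0, with a median of 0.44, where 55.0% of all genes lay above 0 and the median was 0.05. Both libraries labelled K700E were above both labelled wild type in 23 members, against 19.5% of all genes, and below in 1, against 12.6%. The members were chosen by genotype as well as by day, so nothing is read from these counts. Other lists also had both libraries labelled K700E above both labelled wild type: 19 of 27 G1/S and replication genes, with a median of 0.38, and 14 of 27 regulators. So did 13 of 25 other spindle and cytokinesis genes and 12 of 28 other kinetochore genes. It was seen in 7 of 18 anaphase-promoting complex genes, 3 of 16 cohesin and condensin genes and 1 of 15 inhibitors. At day 8 the genotype label coincides with the alignment run and with the pair that lists few rare junctions, and these cannot be told apart. The largest differences were CCNB1 (1.10, SE 0.25), ESPL1 (1.02, SE 0.19) and CDC20 (0.85, SE 0.34), and NUSAP1 was lowest (-0.46, SE 0.23). Within these 4 libraries, wild type replicates 1 and 2 held the lowest value in 22 and 8 of the 36 members. K700E replicates 1 and 2 held it in 2 and 4, all by label. The highest value was held in 1, 5, 16 and 14 members in the same order, and the MAP3K7 acceptor took 10.3%, 77.2%, 14.7% and 62.4%. These counts were not made over all genes, so nothing is read from them. Their relation to the target acceptors was not tested. A fit without wild type day 8 replicate 2 and K700E day 8 replicate 1 left 1 library per genotype. No call is read from it, and the members' median was 0.57, with CDC20 at 1.69.

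The difference between the genotype effects at the 2 days was tested as an interaction, and edgeR called 0 genes (0.0%), with 1371 at an unadjusted p under 0.05. Members with the lowest p were ESPL1 (interaction 1.75, SE 0.26, adjusted p 0.275 by edgeR), CCNA2 (1.17, SE 0.21, adjusted p 0.438) and KIF20A (1.14, SE 0.25, adjusted p 0.472). DESeq2 called 193 genes (1.3%) and 5 members, ESPL1, CCNA2, KIF20A, CDK1 and NCAPH. In 9 members both K700E libraries were below both wild-type libraries at day 4 and above them at day 8 as labelled. Over all genes 27.1% lay below in this way at day 4 and 19.5% above at day 8. The share of all genes with both was not counted, so nothing is read from the 9. Within wild type the fitted day change of ESPL1 was -1.08 (SE 0.19), and within the K700E label it was 0.67 (SE 0.18, adjusted p 0.0451 by edgeR). A fit of the K700E-labelled libraries alone gave 0.65 (SE 0.17, adjusted p 0.0665 by edgeR), which ends that call.

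**Figure D4:**
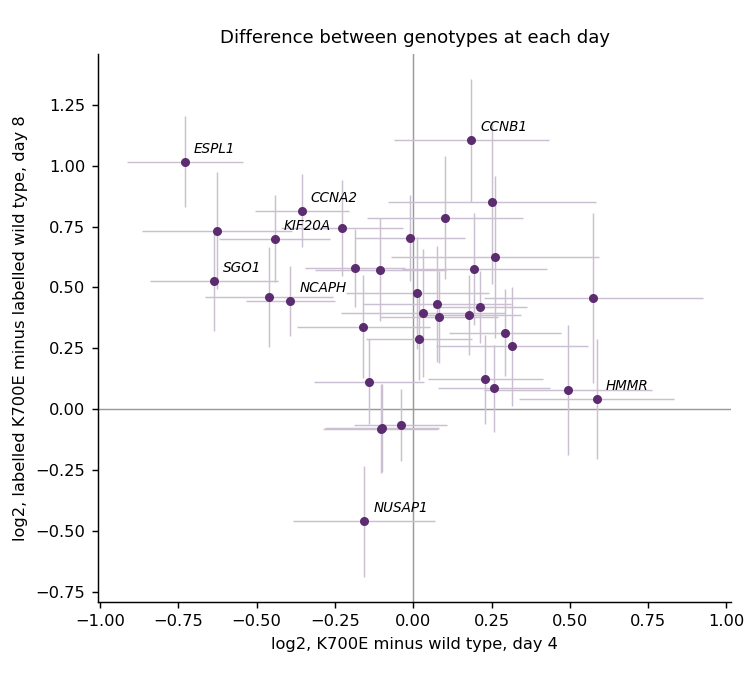
log2 difference between genotypes at day 4 (x axis) and, as labelled, at day 8 (y axis) for the 36 mitosis genes; each point is a gene and bars are 1 standard error of the edgeR fit. Points spread on both sides of 0 at day 4 and 32 of 36 lie above 0 at day 8, with ESPL1 at -0.73 and 1.02.

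Splice junctions of the members were compared as shares of the reads at a shared donor (alternative acceptors) or at a shared acceptor (alternative donors). There were 365 acceptor junctions and 302 donor junctions of members to test. With all 8 libraries, edgeR called 0 of them in any contrast, where a call needs an adjusted p under 0.05 and 5 points of change. Over all genes it called 0.0685% of acceptors and 0.252% of donors between days, and 0.0% of both between genotypes at either day. Unadjusted p-values under 0.05 were found for 12 member acceptors between genotypes at day 4 (2.42% of all acceptors), 37 at day 8 (7.23%) and 40 between days (10.5%).

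In a fit of the 4 day 4 libraries alone, 3 member acceptors were called, all higher in K700E, where 0.468% of 69838 acceptors were called and 0.359% were called higher. Of donors, 0 of members were called, 0.0309% of all and 0.0139% higher. In BUB1B an unannotated acceptor 15 bases upstream of the annotated one (intron chr15:40200981-40202389, plus strand, hg38) took 28 of 632 and 23 of 580 reads in wild type, 4.43% (95% Wilson interval 3.08% to 6.33%) and 3.97% (2.66% to 5.88%). It took 244 of 1030 and 278 of 1099 in K700E, 23.7% (21.2% to 26.4%) and 25.3% (22.8% to 27.9%; edgeR adjusted p 0.000915). At day 8 it took 5.10% and 27.3% under the wild-type label and 10.5% and 21.2% under the K700E label, so the second of each pair was the higher, as in MAP3K7. In TTK an acceptor 21 bases upstream (intron chr6:80040704-80042097, plus strand) took 0.917% and 1.40% in wild type and 9.49% and 7.68% in K700E at day 4 (edgeR adjusted p 0.00775). At day 8 TTK had 0 of 131 reads, which allows up to 2.29%, and 23 of 172 (13.4%) under the wild-type label, and 0.855% and 7.03% under the K700E label. In KIF14 an acceptor 54 bases upstream (intron chr1:200586282-200589216, minus strand) took 0.275% and 0% in wild type and 15.8% and 8.99% in K700E at day 4 (edgeR adjusted p 0.00220). At day 8 it took 0% and 13.4% under the wild-type label and 1.10% and 2.92% under the K700E label. None of the 3 acceptors is in the annotation; each distance is a multiple of 3. Intervals and limits cover counting error only, since reads carry no molecular identifiers.

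**Figure D5:**
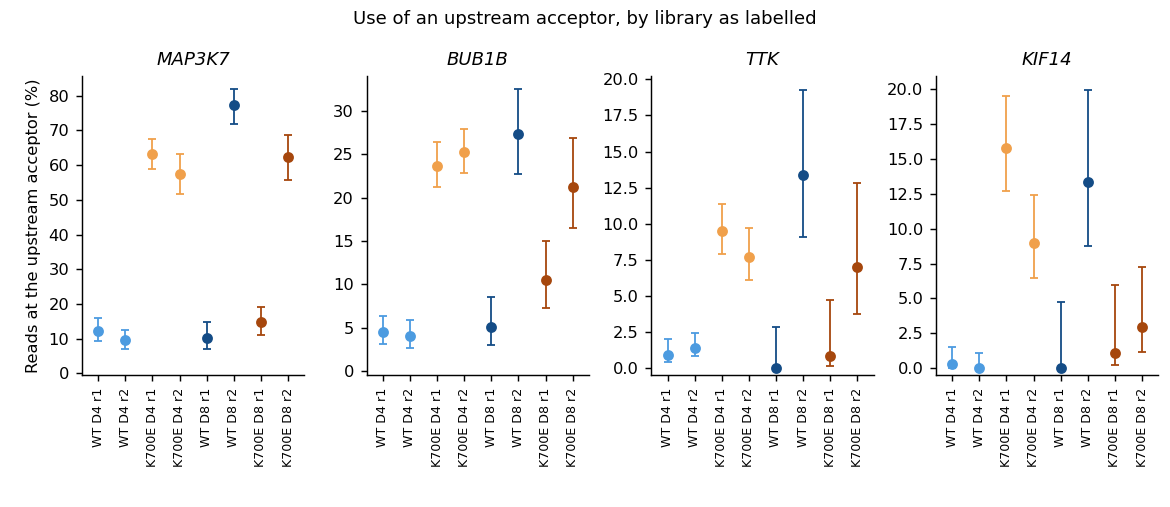
Share of reads at an upstream acceptor (y axis, percent; each panel has its own scale) in each library as labelled (x axis), for the SF3B1 target MAP3K7 and the members BUB1B, TTK and KIF14; bars are 95% Wilson intervals. At day 4 both K700E libraries lie above both wild-type libraries in all 4 panels, and at day 8 wild type replicate 2 lies high in all 4.

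Acceptors 10 to 30 bases upstream of the most used one numbered 19 in 12 members, 17 of them unannotated. At day 4 both K700E libraries were above both wild-type libraries at 10 of the 19 and below at 2. Over all genes, 49.8% of 2440 such acceptors were above and 8.69% below, so the members' counts lay near the background. ESPL1 had 0 of 122 and 0 of 131 reads in wild type and 7 of 86 and 4 of 61 in K700E at an acceptor 27 bases upstream (intron chr12:53272858-53274789), 8.14% and 6.56%. NCAPG, at 16 bases, went from 0.253% and 0.450% to 3.73% and 2.13%, and CDC20, at 13 bases, from 0% in both to 1.38% and 1.77%. The main transcripts of these genes thus kept the annotated acceptor in most reads.

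Other junctions of members with the lowest p and a change of at least 5 points are given as values. The annotated CCNB1 junction chr5:69171453-69174876, which skips annotated exons, took 8.32% and 11.1% of the reads at its acceptor in wild type and 2.68% and 0.892% in K700E at day 4, and 1.21% to 4.88% over the day 8 libraries. Between days the largest evidence was in CENPE, where an annotated acceptor (intron chr4:103140080-103140255, minus strand) took 9.47% to 17.7% at day 4 and 0%, 0%, 6.56% and 1.75% at day 8 (edgeR adjusted p 0.0518). KIF14 followed, with an unannotated acceptor (intron chr1:200618653-200620410) at 11.9% to 25.8% and then 0%, 0%, 5.56% and 4.32%. In both, the zeros were in the wild-type pair of day 8, which lists few rare junctions, and the part of that in the change was not tested. The remaining day junctions by this rule were in SGO1, PTTG1, DLGAP5, ASPM, AURKB and CENPE, with unadjusted p from 0.00973 to 0.0815. Those between genotypes at day 4 were in NUSAP1, ASPM and CENPE besides the ones above. Between genotypes at day 8 they were in ESPL1, KIF18A, NCAPG, CENPE and SGO1. An annotated ESPL1 junction (chr12:53284168-53287971) led these: it had 0 of 56 and 0 of 34 reads at its donor under the wild-type label and 18 of 66 and 15 of 82 under the K700E label (edgeR adjusted p 0.547), and 19 of 92, 7 of 66, 9 of 50 and 3 of 52 at day 4.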

How the data were processed

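Strand-specific RNA libraries of K562 cells were sequenced (8 libraries, 4 groups of 2). The submitters' processing notes name cutadapt, STAR and the hg38 build; the aligner was STAR 2.7.0e, end to end in 1 pass, with GENCODE release 29 in the index and release 22 added at mapping, per the file headers. The deposited values are raw counts of uniquely mapped and multi-mapped reads across each splice junction. Unique counts over GENCODE 29 introns of a single gene were summed per gene, so unspliced RNA is not measured; introns shared by genes carried 3.98% to 4.39% of reads and were left out. Genes were tested with edgeR 4.0.16 (quasi-likelihood, TMM, filterByExpr, all 8 libraries in 1 model) at a Benjamini-Hochberg adjusted p under 0.05. Junctions with 5 unique reads in 2 libraries, at sites with 2 such junctions and a mean of 20 reads, were tested with diffSpliceDGE. Library totals were 49338071 to 77750812 reads. The counting error of a junction share, given as a 95% Wilson interval, was taken from the reads at the junctions compared. DESeq2 1.42.0, limma 3.58.1, other filters and scalings, left-out libraries and, added after seeing the data, GC content and length were tried as alternatives. The edgeR day contrast and the day 4 junction test were run on simulated counts with known changes, and the GC adjustment was not. The simulated counts held no library against its label. Members and lists were chosen with earlier results of these data known. The named members are all 36; other lists give at most 4 called genes by size, and junctions up to 10 by size or lowest p. Figures were drawn with matplotlib.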

Additional observations from a re-analysis of the deposited data

How the results depend on the processing

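The 34 members called lower at day 8 were 34 in number under every alternative run except within wild type alone (33) and within K700E alone (27), and 0 were called higher in these fits; the day change within the K700E label, taken from the 8 libraries, called ESPL1 higher (0.67). The count over all genes, 5369, moved to 1888 and 2076 in those 2 fits, to 2221 with GC content and 2216 with GC content and length adjusted, and ranged from 2897 (without wild type day 4 replicate 2) to 5980 with 1 library left out. The members' median was -1.16 under both adjustments and -1.66 to -1.52 with 1 library left out; plain CPM moved the median of all genes from 0.00 to 0.17. ESPL1 reversed to 0.65 within K700E, and INCENP, at -0.054 to 0.137 with 1 library left out and below 0 without wild type day 4 replicate 2 or K700E day 8 replicate 2, to -0.080 within K700E, to -0.59 with GC content and to -0.60 with GC content and length adjusted; the cause was not tested. Between genotypes at day 4, where the count of genes was 0, it was 126 with no filter, 270 by DESeq2 (1 member), 74 in the day 4 libraries alone and 1 under each adjustment. At day 8 it was 65 by DESeq2 (3 members) and 242 (1 member) without the 2 libraries against their labels. For the interaction it was 102 with no filter (1 member) and 193 by DESeq2 (5 members), with 0 for each left-out library; the members' median was 0.64 without those 2 libraries and 0.17 to 0.76 with 1 left out (0.17 without wild type day 8 replicate 1, 0.76 without replicate 2). The fit without the 2 libraries against their labels left 1 library per genotype at day 8. It has no replicates there, so nothing is read from its counts of genes or members. Correlations of same-numbered deviations between groups ran from -0.17 to 0.24, the highest between the wild-type and K700E labels of day 8. There the MAP3K7 acceptor also split by replicate number, at 10.3% and 14.7% in replicate 1 and 77.2% and 62.4% in replicate 2. Whether replicate numbers pair the libraries was not tested. With a replicate block 34 members and 5272 genes were called between days, and 30 acceptors and 128 donors in place of 65 and 220. Junction counts between days were 103 acceptors and 351 donors with no minimum change, 672 and 1732 by limma (2 members), 122 and 394 with 10 reads (1 member), and 0 to 2047 acceptors and 4 to 3011 donors with 1 library left out, with 0 to 7 members; the largest were without wild type day 8 replicate 2. Between genotypes at day 4 they were 327 acceptors (3 members) and 20 donors in the day 4 libraries alone, 1 donor by limma, and 0 to 36 acceptors with 0 to 2 members with 1 library left out, called without either library labelled wild type at day 8. At day 8 they were 0 to 644 acceptors and 0 to 653 donors, with 0 to 10 members, above 0 without wild type day 8 replicate 2. Depth limits the junction shares: the named member sites held as few as 24 reads in a day 8 library.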
